A study of Mus musculus with 2 samples.

Results

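The Zfp genes examined here were the mouse protein-coding genes whose symbol is Zfp followed by digits alone and whose 3′UTR held at least 1 crosslink site of Tia1 in B cells. Zfp36, whose product is a CCCH-type RNA-binding protein, was left out. The rule found 135 of the 364 such Zfp genes in the annotation (37.1%), where 33.5% of all 21951 protein-coding genes had a 3′UTR site (7364 genes). The genes were selected on their pooled 3′UTR sites, so their counts on the 3′UTR are a description and were not tested. iCLIP, a crosslinking and immunoprecipitation assay, had been carried out on the cytoplasm of splenic B cells. In this assay the nucleotide just before each cDNA start is taken as the protein-bound one. Both samples, replicates 1 and 2 of 1 group, were C57BL/6 primary cells kept with lipopolysaccharide (LPS, 10 µg/ml) for 48 h. The cells came from young adult mice whose sex the sources used here do not give, and no control sample was analysed, so no comparison of conditions and no measure of background binding could be made. The titles name Tia1 but the antibody field names goat anti-Tial1 (C-18), an antibody to the related protein. The methods state an antibody against Tia1, and the antibody list of the study gives a different goat antibody for iCLIP and keeps C-18, listed there as against Tia1, for immunoblots. The protein is called Tia1 here.

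Tia1 is an RNA-binding protein that recognises U-rich stretches and gathers silenced mRNAs into stress granules. Most Zfp genes encode proteins with tandem C2H2 zinc fingers, short repeats in which a pair of cysteines and a pair of histidines hold a zinc ion and the residues between them contact DNA. Many also carry a KRAB domain, which recruits the corepressor Trim28 and with it histone methylation to silence retroelements and imprinted loci, and these KRAB genes lie in clusters of similar copies. A smaller number act instead in RNA metabolism, on the ribosome, in ubiquitin signalling or at the mitotic spindle.

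Over all genes, 639108 cDNAs at 342732 low-FDR sites were deposited for replicate 1 and 165081 at 93512 for replicate 2, a ratio of 3.87, and 98.9% and 99.1% of these cDNAs could be placed on mm10. Low-FDR sites are those that passed the false discovery rate filter of the authors. All 7 B-cell marker genes had a 3′UTR site, where 33.5% of all protein-coding genes had one. Their median pooled count was 172. The highest was Pax5 with 1856 (1475 and 301 cDNAs in replicates 1 and 2) and the lowest Cd79a with 10 (8 and 0). Among markers of other cells, a 3′UTR site was found for 1 of 4 for T cells, 3 of 4 for myeloid cells and 1 of 3 for erythroid cells. Their highest pooled counts were 4, 24 and 28, so Cd79a lay below the highest myeloid and erythroid markers. A pooled count is that of a site called on the sum of both replicates. A count of cDNAs moves with the abundance of the transcript as well as with its binding, and these cannot be told apart here. Exact 95% binomial (Clopper-Pearson) intervals cover counting error only.

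On average, the sites on the 3′UTR of the leading Zfp transcripts lay in sequence richer in U than the 3′UTR as a whole. The 29 nt around the strongest pooled site are printed below for 10 Zfp genes, to show the element under the crosslink, which is the 15th base. They are given as RNA on the transcript strand and read from the mm10 genome. Capitals mark runs of 4 or more U.
Zfp871, chr17:32770197-32770225, minus strand: uuaaacacuaauauuuacuauaagaugau
Zfp26, chr9:20435376-20435404, minus strand: uuagcUUUUUUaUUUUUgugacagggucu
Zfp362, chr4:128773345-128773373, minus strand: uaacuguguuaUUUUUauacacUUUUUaa
Zfp207, chr11:80395578-80395606, plus strand: ggagauuaaaccUUUUcucaacuugugcu
Zfp266, chr9:20496986-20497014, minus strand: aaaugaggaUUUUUUUUUUcccucuacuc
Zfp292, chr4:34804610-34804638, minus strand: uauuuguagauaUUUUUguauauauuuau
Zfp106, chr2:120509645-120509673, minus strand: UUUUaauuccuccUUUUgaaauaacuggg
Zfp422, chr6:116625087-116625115, minus strand: UUUUcUUUUUUacuuucuagcaauuguuu
Zfp110, chr7:12849938-12849966, plus strand: ucaaagcacuaUUUUUUUUUcagccuuga
Zfp91, chr19:12769953-12769981, minus strand: aggacaaaaaaaauuuaaagcauuuaaaa

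Of these 10 windows, those of Zfp871 and Zfp91 held no run of 4 U, and that of Zfp91 was mostly A. Averaged over their sites, U made up 44.4% around those of Zfp871 and 41.3% around those of Zfp91. Their 3′UTRs held 36.1% and 31.4%. Over the 134 Zfp genes with a site of their own, 104 strongest sites (77.6%) had such a run in their 29 nt, where 20.97% of all windows of that length in the same 3′UTRs had one. The share for the strongest sites of all genes is not given. The remaining gene, Zfp865, had its 3 sites inside the overlapping gene Gm44973 as well, and its sites are in no count of cDNAs below.

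A few transcripts carried most of the signal. The 134 genes held 7003 pooled cDNAs on their 3′UTRs, 5215 called in replicate 1 and 1042 called in replicate 2, and the first 2 genes held 27.9% and the first 10 held 58.4% of the pooled cDNAs. In the middle of the list the counts were low, with a median of 10.5 pooled cDNAs per gene against 28 over all 7297 genes with a 3′UTR site of their own. Per kb of 3′UTR the medians were 6.43 and 21.9. At least 50 pooled cDNAs lay on 25 Zfp transcripts (18.7%, against 37.2% of all genes).

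**Figure D1:**
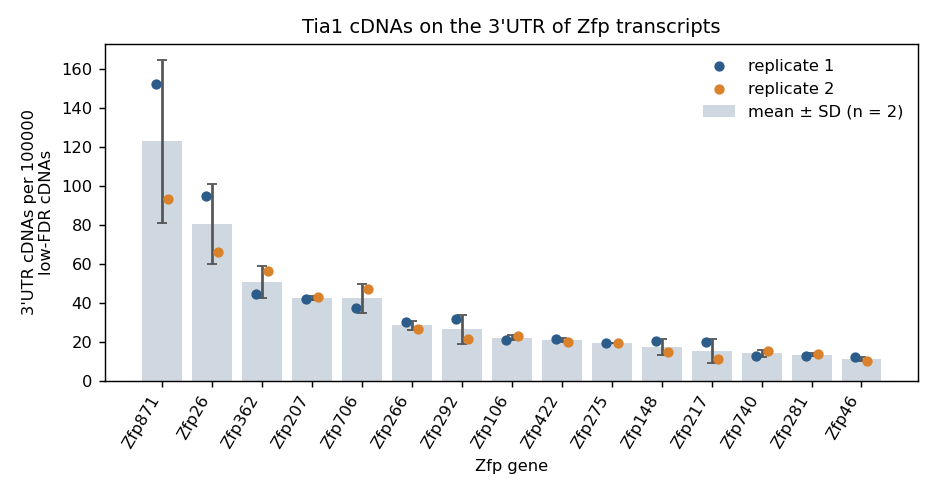
3′UTR cDNAs per 100000 low-FDR cDNAs of each replicate (vertical axis) for the 15 Zfp genes with the highest mean. Points are the replicates and bars the mean ± SD (n = 2); Zfp871 and Zfp26 lie above all others in both replicates, and their replicates are far apart.

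Zfp871, a KRAB gene on chromosome 17 with 15 fingers, had the highest count. It held 973 cDNAs in replicate 1 and 154 in replicate 2, or 152 and 93.3 per 100000 low-FDR cDNAs (123 ± 41.7, SD, n = 2), and ranked 50th among all genes by pooled count. Zfp26, a KRAB gene on chromosome 9 with 22 fingers, held 606 and 109 (80.4 ± 20.4 per 100000) and ranked 116th. Both were relatively higher in replicate 1. The third KRAB gene with at least 50 pooled cDNAs was Zfp266, with 192 and 44 (28.3 ± 2.40 per 100000).

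The other leading genes lacked a KRAB match. Zfp362 held 285 cDNAs in replicate 1 and 93 in replicate 2 (50.5 ± 8.30 per 100000). Zfp207, whose product BuGZ binds spindle microtubules and loads Bub3 at kinetochores, held 267 and 71 (42.4 ± 0.871). Zfp706, a small protein with 1 finger, held 237 and 78 (42.2 ± 7.19). Zfp362 was above the other two in both replicates, whereas Zfp207 was above Zfp706 in replicate 1 and below it in replicate 2, so that these last means cannot be ordered. Of the pooled cDNAs on Zfp706, 22.2% started where the next 30 nt occur more than once in the genome, including its strongest site, and the assignment of those is uncertain. Zfp292, a large tumour suppressor protein, held 201 and 35, and Zfp106, an RNA-binding protein needed for neuromuscular function, held 135 and 38. Zfp422 (138 and 33, with 11.4% of its pooled cDNAs at repeated sequence) and Zfp275 (124 and 32) completed the first 10.

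Relative to 3′UTR length the order changed. Zfp362 had 263 summed cDNAs per kb of 3′UTR, Zfp292 and Zfp871 had 127 each, and Zfp207 had 114. Zfp110, which encodes a partner of the p75 neurotrophin receptor, followed with 91.6 per kb from only 43 and 17 cDNAs, on a 3′UTR of 655 nt. The longest 3′UTRs of Zfp871 and Zfp26 measured 8859 and 7941 nt, and those of the other 8 genes among the first 10 at most 4700 nt.

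**Figure D2:**
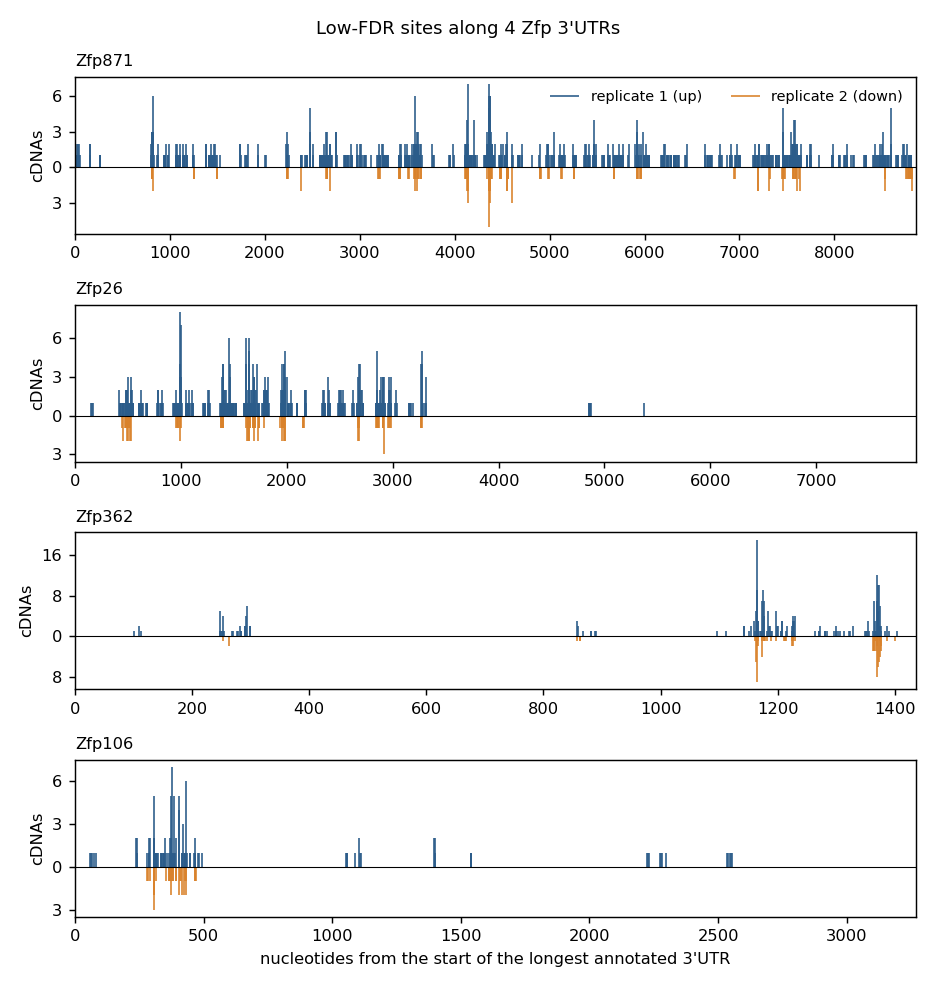
Called cDNAs per crosslinked nucleotide (vertical axes, replicate 1 upward in blue, replicate 2 downward in orange) against nucleotides from the start of the longest annotated 3′UTR of Zfp871, Zfp26, Zfp362 and Zfp106. Sites are spread over the whole of Zfp871, are few beyond nucleotide 3192 of Zfp26 and are gathered in short stretches of Zfp362 and Zfp106.

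The leading transcripts differed in how the cDNAs were laid out. Sites no more than 15 nt apart were joined into clusters. Zfp871 had 98 clusters, and the fullest one held 8.68% of its pooled cDNAs. Zfp26 had 36, and 95% of its pooled cDNAs lay within the first 3192 of the 7941 nt, with the last site at nucleotide 5599. On Zfp207 the longest annotated 3′UTR held 96 of the 359 pooled cDNAs, and the others lay on its other annotated 3′UTRs. In other genes a single cluster held most of the pooled cDNAs, with 84.4% on Zfp110 (32 nt long), 79.3% on Zfp740 (107 nt), 72.9% on Zfp106 (228 nt) and 63.2% on Zfp422 (49 nt). Some genes with fewer cDNAs had higher shares, such as 100% on Zfp638 (45 pooled cDNAs) and Zfp622 (32). On Zfp362 the fullest cluster held 44.5%, and it held the strongest single site of any Zfp gene, of 28 pooled cDNAs (19 and 9 in replicates 1 and 2). Another site of Zfp362 followed, of 20 pooled cDNAs (12 and 8). By the strongest site of each gene, those of Zfp207 (10 and 5) and Zfp422 (13 and 1) came next. Zfp800, Zfp451 and Zfp91 resembled Zfp871 in having no dominant cluster (9.77%, 10.7% and 10.9% in the fullest one).

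Single sites were thin. Of the 4349 pooled 3′UTR sites of the Zfp genes, 69.3% held 1 cDNA, against 63.0% over all genes, and sites of 5 or more held 16.1% of the cDNAs, against 35.5%. Of the sites called in replicate 2, 53.5% were also called in replicate 1 (64.6% over all genes).

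A 3′UTR site was called in both replicates for 62 Zfp genes (46.3%), against 63.4% of all genes. Only replicate 1 had one for 48 genes, only replicate 2 for 5, and 19 had a site in the sum alone, among them Zfp24 with 15 pooled cDNAs and Zfp282 with 13. Set beside genes of like pooled count, the shares were closer. In both replicates were 5 of 64 Zfp genes with 1 to 9 pooled cDNAs (7.81%, against 10.8% of all genes), 12 of 21 with 10 to 24 (57.1%, against 54.6%), 21 of 24 with 25 to 49 (87.5%, against 83.5%) and 24 of 25 with 50 or more (96.0%, against 98.4%).

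**Figure D3:**
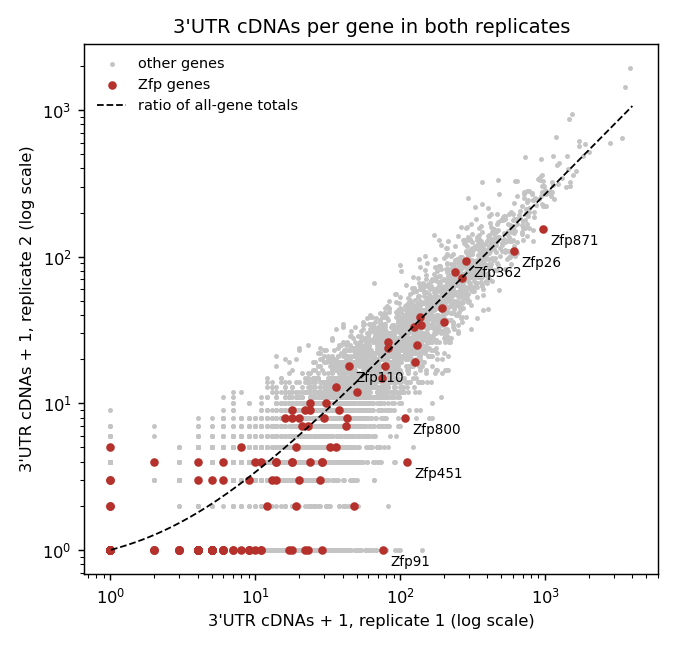
Called 3′UTR cDNAs plus 1 of each gene in replicate 1 (horizontal, log scale) and replicate 2 (vertical, log scale), Zfp genes in red and other genes in grey. The dashed line is the ratio of the totals over all genes; Zfp871, Zfp26, Zfp451, Zfp800 and Zfp91 lie below it and no red point with at least 50 cDNAs has an interval wholly above it.

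Replicate 2 supplied 16.7% of the called 3′UTR cDNAs of the Zfp genes (95% interval 15.7% to 17.6%), against 21% over all genes. Without Zfp871 and Zfp26 the share was 17.6% (16.5% to 18.8%). At sites called in replicate 1 alone, 142 uncalled cDNAs of replicate 2 were recovered from the pooled counts. Counting both replicates at every site called in either gave 18.5% (17.5% to 19.5%), against 22.1%, and cDNAs of both replicates on 80 genes (59.7%, against 73% of all genes). The share also rose with the height of the sites, to 22.7% at sites of at least 5 pooled cDNAs, against 28.0% over all genes at such sites.

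Among the 21 Zfp genes with at least 50 called cDNAs, 7 had a replicate 2 share whose interval lay below that of all genes (18.6% of all genes of that count did) and 0 had one above it (13.9% of all genes). Zfp91, an E3 ubiquitin ligase of NF-κB signalling, had 75 cDNAs in replicate 1 and 0 in replicate 2, which allows a share of up to 4% by the limit of 3 counts (the exact interval ends at 4.80%). At the same sites 6 uncalled cDNAs of replicate 2 could be recovered, a share of 7.41% (2.77% to 15.4%). Zfp451, a SUMO ligase, had 111 and 3, and with recovered counts 7 from replicate 2 (5.93%, 2.42% to 11.8%). Zfp800 had 107 and 7, and with recovered counts 13 (10.8%, 5.90% to 17.8%). These 3 genes remained below the all-gene share after recovery. Zfp217, Zfp26, Zfp292 and Zfp871 made up the 7. Zfp217, an oncoprotein found with histone deacetylase complexes, had 126 and 18, and after recovery its place among the 7 was taken by Zfp236. With recovered counts 23 Zfp genes had at least 50 cDNAs, of which 7 lay below and 0 above. Over all genes of that count 15.4% lay below and 11.8% above. The highest shares of replicate 2 were those of Zfp110 (28.3%), Zfp706 (24.8%) and Zfp362 (24.6%), with intervals that held the all-gene share.

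The lists by role that follow are short, and each count is to be read against all genes, of which 33.5% had a 3′UTR site and, of those with one of their own, 63.4% had it in both replicates. Of 6 genes of RNA binding and the ribosome, 5 had a 3′UTR site and 4 had one in both replicates. After Zfp106 came Zfp326, a subunit of the DBIRD complex that couples elongation to splicing (41 and 6 cDNAs), Zfp638, an RNA- and DNA-binding protein (37 and 8), and Zfp622, a maturation factor of the large ribosomal subunit (23 and 9). Zfp598, the ubiquitin ligase that senses collided ribosomes, had 3 in replicate 1 alone, and Zfp346 had no site.

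Of 13 transcription and chromatin genes, 11 had a site and 8 had one in both replicates (all genes, 33.5% and 63.4%). Zfp148, which binds GC-rich promoters, had 129 cDNAs in replicate 1 and 24 in replicate 2. Zfp281, a regulator of pluripotency genes, had 82 and 23. The others with a site lay between 5 and 44 pooled cDNAs, apart from Zfp217. Zfp143, an activator bound at many promoters, had 21 and 0, Zfp609 had 17 and 0, and Zfp687 had 5 and 0. Zfp219 and Zfp462 had none.

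Of 3 B-cell and immune genes, 2 had a site and 1 had one in both replicates. Zfp318, which is required for the expression of IgD alongside IgM in mature B cells, had 18 and 1. Zfp91 is described above, and Zfp521 had none. Among the 3 genes of mitosis and genome stability, Zfp207 and Zfp830 (21 and 8) had sites in both replicates and Zfp668 had none.

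Of 4 genes of imprinting and retroelement silencing, 3 had a site and 2 had one in both replicates. Zfp568, which represses a placental transcript of Igf2, had 17 and 7, and Zfp445, a regulator of imprinting control regions, had 19 and 2. Zfp809, which silences retroviral elements, had 4 pooled cDNAs called in neither replicate alone, and Zfp57, which protects imprints, had no site.

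The corepressor genes that KRAB proteins work through were taken as a further list. All 19 had a pooled 3′UTR site and 16 had one in both replicates, with a median of 123 pooled cDNAs, where 33.5% of all genes had a site, 63.4% of those with one of their own had it in both, and the median of these was 28. Cbx5, which encodes the heterochromatin protein HP1α, had 830 cDNAs in replicate 1 and 151 in replicate 2. Rbbp4, a histone chaperone subunit of the deacetylase complexes, had 519 and 143. Dnmt1, the maintenance DNA methyltransferase, had 347 and 155, and Trim28 itself had 88 and 29. Setdb1, the histone methyltransferase recruited by Trim28, had 14 and 8, and the lowest were Cbx1, Chd3 and Mphosph8 with 1, 4 and 6 pooled cDNAs.

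The KRAB genes as a class were lower than the other Zfp genes. A sequence pattern of the KRAB box was matched in 164 of the 364 proteins. The pattern is strict, and Zfp445, a known KRAB protein, did not match it, so the class without a match holds some KRAB genes. A 3′UTR site was found for 48 of the 164 (29.3%) and for 87 of the other 200 (43.5%, Zfp865 included). The median pooled count was 5 with a KRAB match (medians of 3 and 0 in replicates 1 and 2) and 23 without (16.5 and 2). Sites in both replicates were found for 10 (20.8%) and 52 (60.5%). The median per kb was 2.81 and 10.8, while the medians of the longest 3′UTR were 1793.5 and 1802.5 nt. Thus 22 of the 25 genes with at least 50 pooled cDNAs had no KRAB match, although the first 2 by count did.

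Just inside the rule were 7 genes with 1 pooled cDNA (Zfp12, Zfp128, Zfp160, Zfp239, Zfp595, Zfp868 and Zfp870). Of the 229 Zfp genes outside it, 205 had no site anywhere and 24 had sites elsewhere in the gene, 14 of them in the coding sequence (CDS) with at most 4 pooled cDNAs. Their longest 3′UTR had a median of 1125.5 nt, against 1793.5 nt for those inside. By chromosome, 24 of the 88 Zfp genes on chromosome 7 had a 3′UTR site of their own, 19 of 41 on chromosome 17, 11 of 17 on chromosome 6 and 10 of 31 on chromosome 13. These were the chromosomes with the most such genes. Chromosome 2 had 7 of 25 and chromosome 4 had 5 of 30. Over all chromosomes 37.1% of the Zfp genes had a 3′UTR site, Zfp865 included.

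Within the 3′UTR, U made up 47.5% of the bases of the 31-nt windows around the sites in replicate 1 and 50.8% in replicate 2 (49.1% ± 2.32, SD, n = 2), against 30.8% over all positions of the same 3′UTRs. Over all genes it was 44.8% and 49.6%, against 30.3%. The crosslinked base was U at 77.7% and 86.0% of the sites of the Zfp genes, against 73.7% and 84.7% over all genes. The run UUUUU lay in 45.5% and 57.6% of the windows of the Zfp genes on the transcript strand, against 8.57% of all windows of the same 3′UTRs. Over all genes it lay in 39.5% and 54.7% of the windows around sites. The excess of U was present gene by gene, in 128 of 134 genes and in all 65 with at least 10 sites. The median difference over the 134 was 17.9 percentage points. The matching gene counts over all genes are not given, so the excess is not shown to be particular to the Zfp genes. With and without a KRAB match the U share was 47.7% and 47.3% in replicate 1 and 53.2% and 49.4% in replicate 2.

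**Figure D4:**
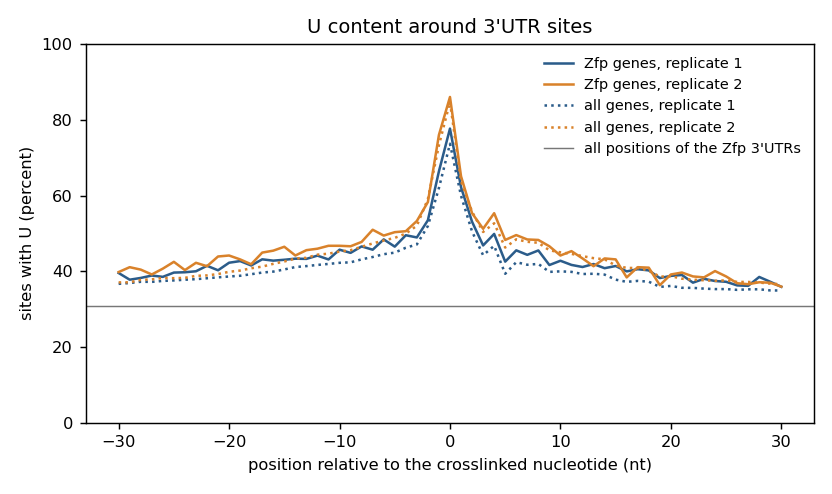
Percent of 3′UTR sites with U (vertical axis) at each position from 30 nt before to 30 nt after the crosslinked nucleotide, for Zfp genes (solid) and all genes (dotted) in replicate 1 (blue) and replicate 2 (orange). The curves peak at the crosslink, at 77.7% and 86.0% for the Zfp genes, above the 30.8% of all positions of their 3′UTRs (grey).

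Along the longest 3′UTR, cut into 5 equal parts, the first part held the most cDNAs in both replicates, as it did over all genes (29.4% and 30.4%). For the 62 Zfp genes with at least 10 summed cDNAs and a 3′UTR of at least 300 nt, the parts held 27.6%, 21.9%, 17.9%, 11.3% and 21.3% in replicate 1 and 30.4%, 18.2%, 20.4%, 6.98% and 23.996% in replicate 2. Over all 4577 such genes the last part held 20.01% and 22.3%. Zfp871 and Zfp26 weigh on these shares by their counts.

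The CDS held little of the signal. Of the exonic cDNAs of the Zfp genes, 3.16% were in the CDS in replicate 1 (171 of 5419, 95% interval 2.71% to 3.66%) and 1.13% in replicate 2 (12 of 1060, 0.586% to 1.97%), a mean of 2.14% ± 1.43 (SD, n = 2). Over all genes with a 3′UTR site the shares were 7.06% and 3.55%. Introns held 150 and 31 cDNAs. Zfp207 had the most in the CDS, 34 in replicate 1 and 3 in replicate 2, and of its 44 pooled CDS cDNAs 1 lay in a finger. Zfp800 followed with 22 and 2, Zfp53 with 12 and 0, Zfp106 with 9 and 1, and Zfp266 with 8 and 2.

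The codons of the zinc fingers held 58 of the 171 CDS cDNAs of replicate 1 (33.9%, 26.9% to 41.5%) and 1 of the 12 of replicate 2 (8.33%, 0.211% to 38.5%). The fingers took up 29.1% of the CDS length of these genes. In pooled cDNAs the fingers held 38 of 59 in genes with a KRAB match (64.4%, with 44.0% of the CDS length) and 31 of 168 in the others (18.5%, with 23.0%). Among the Zfp genes outside the rule they held 38 of 45 (84.4%, with 38.8% of the length). By replicate these were 26 of 31 in replicate 1 and 4 of 5 in replicate 2. For the genes with a 3′UTR site, replicate 2 gave a single finger cDNA, so their finger values rest on replicate 1.

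Inside the finger most cDNAs lay in the same stretch. Of 69 pooled cDNAs at 52 sites in 16 genes, 64 (92.8%) lay between the codons of the second cysteine and the first histidine, which take up 56.5% of the finger length. Many of these sites were near neighbours in the same finger, as were all those of Zfp53, between positions 21508994 and 21509017. The cDNAs and sites are therefore not independent cases. The codons of phenylalanine or tyrosine, which are UUU, UUC, UAU and UAC, held 32 (46.4%), while 7.40% of the finger residues are of these kinds. These codons are rich in U, and the share of finger U bases that lie in them was not computed. A preference for these codons and a preference for U cannot be told apart here. Only 1 of the 69 cDNAs started at a sequence of 30 nt with a further copy in the genome. The windows of 4 such sites in different genes are printed below to show the stretch of the repeat in which the crosslinks lay. All 4 hold codons for phenylalanine or tyrosine, which other finger windows did not always hold. The window of a Zfp800 site (2 pooled cDNAs) held none, and a site of Zfp472 (2 pooled cDNAs) lay outside the stretch. The printed windows are RNA on the transcript strand from mm10 with the crosslink at the 15th base, and capitals mark in-frame codons for phenylalanine or tyrosine.
Zfp53, chr17:21508982-21509010, plus strand: gugugugauaaaucuUUUacuguuaauuc
Zfp54, chr17:21434324-21434352, plus strand: gugguaaguccUUUUUUauauuaucacau
Zfp87, chr13:67517721-67517749, minus strand: guggcaaagccUUUUAUuuaccuucaUUC
Zfp809, chr9:22238945-22238973, plus strand: gcaggaaagcuUUCUAUUACaagucugac

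Zfp53 had the most finger cDNAs, 15 pooled with 12 called in replicate 1 and 0 in replicate 2, against 3 pooled on its 3′UTR. Zfp54 had 8 in fingers and 5 on the 3′UTR, Zfp87 had 6 and 4, and Zfp809 had 5 and 4. In these genes the fingers held more pooled cDNAs than the 3′UTR, at counts too low to place one above another.

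**Figure D5:**
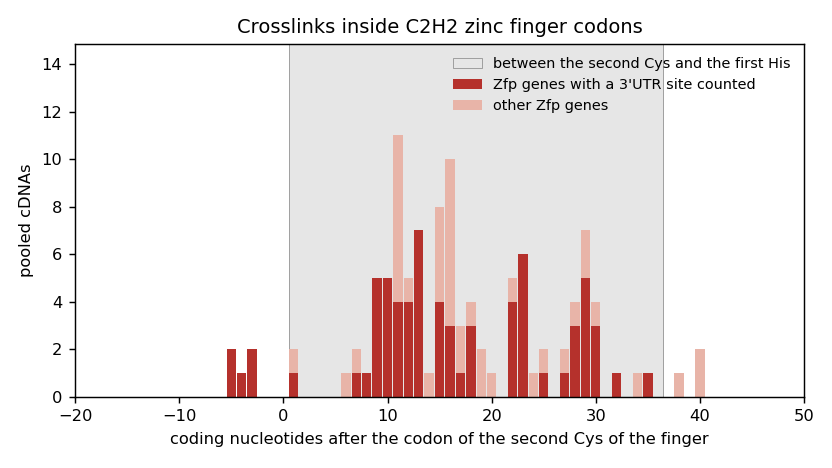
Pooled cDNAs (vertical axis) at each coding nucleotide after the codon of the second cysteine of a zinc finger, for the Zfp genes with a 3′UTR site (dark) and other Zfp genes (light), with the stretch up to the first histidine shaded. Of the 69 cDNAs of the first set, 64 fall in the shaded stretch.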

How the data were processed

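iCLIP was measured in 2 replicates of 1 group. The authors ran the iCount pipeline: reads were split by barcode, duplicates were removed by their random bases, and mapping was to mm9 (the submitters' processing notes name Bowtie). The version of Bowtie and the treatment of reads matching several places are not given in the sources used here. The deposited values are whole-number counts of unique cDNAs at each crosslinked nucleotide, unscaled, and a minus sign marks the minus strand. Low-FDR sites were kept at a false discovery rate of 0.05 from 100 permutations within 15 nt, called on each replicate and on their sum, and the authors lifted the pooled sites to mm10. The unfiltered mm9 map was not used.

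The pooled mm9 and mm10 lists held the same 422150 rows in the same order, so replicate counts were carried over by row. At a site called in 1 replicate, the count of the other was recovered as the pooled count minus the called one. Sites were assigned on the same strand with GENCODE M21, in the order CDS, 3′UTR, 5′UTR, other exon, intron, and sites in several 3′UTRs were left out. Fingers were found in the translated longest CDS as C, 2 to 4 residues, C, 12 residues, H, 3 to 5 residues, H. Python 3.11.15, numpy 2.4.6, pandas 2.3.3 and scipy 1.17.1 were used. The interval call was tried on simulated counts with counting error alone, around a share common to all genes except some set lower. The real shares spread more widely, with 18.6% of all genes below and 13.9% above the all-gene share. The simulation therefore does not show how the call behaves on these replicates. With 2 replicates of 1 group no test was run. The methods describe the replicates as independent experiments.

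Named genes were the 10 with the highest mean cDNAs per 100000, the 5 with the most cDNAs per kb (of at least 10), the 5 with the most CDS cDNAs, the 3 with the highest and lowest replicate 2 share (of at least 50), the 3 with the strongest site, those at the threshold, and the role lists. Zfp24, Zfp54, Zfp87, Zfp236, Zfp282 and Zfp740 were added after their values were seen. Members and lists were chosen with earlier results of these data known. Alternatives were other site minimums, feature orders, shared or repeated sites, windows, 3′UTR choices, finger patterns and each replicate left out.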

Additional observations from a re-analysis of the deposited data

How the results depend on the processing

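Of 68 alternative values, 50 differed from the reported one by less than the spread between replicates (counts: within 1.5 times) and 18 by more. At sites of at least 2 pooled cDNAs the replicate 2 share was 19.8% and 2 genes had a share off that of all genes, in place of 7. At sites of at least 5, 27 genes had a 3′UTR site (22 in both replicates, median 13 summed cDNAs) and the finger share of CDS cDNAs was 0%. The replicate 2 share was then 22.7%, against 28.0% over all genes, and 3 genes were off the all-gene share. For these counts of 2 and 3 genes, the number examined and the share over all genes are not given. Nor is the share over all genes given for the 27 and 22 genes. The last of 5 parts of the 3′UTR held 32.2% at sites of at least 5. The U share was 51.8% in 21 nt and 45.7% in 51 nt. In the 3′UTR with most cDNAs per nt the last part held 27%. Counts of both replicates at sites called in either were an alternative chosen after seeing the data. They gave a replicate 2 share of 18.5%, against 22.1% over all genes, and genes with cDNAs in both rose from 62 to 80. Without replicate 1 or replicate 2, the genes with a 3′UTR site numbered 67 and 110. These were 50.0% and 82.1% of the 134 genes, against 65.6% and 92.1% of all genes. With 1 replicate left, the genes with a site in every replicate are the same genes, so that count adds nothing. Between these 2 settings the median count ranged from 6 to 13, the CDS share from 1.04% to 2.62% and the finger share from 0% to 23.4%. The U share ranged from 47.5% to 50.8% and the last part from 21.4% to 24.7%. The cause of these shifts was not tested. No replicate could be left out of the replicate 2 share or the genes off it, which need both. No paired analysis was possible because the samples form 1 group. The CDS and finger values of replicate 2 rest on 12 and 1 cDNAs.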
